A study of Arabidopsis thaliana with 42 samples.

Results

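The nitrate response described here is that of roots of Tamm-27, a natural accession of Arabidopsis thaliana, and its members are the 6 arrays labelled with this ecotype among 42 arrays of 7 accessions. The groups compared were 3 arrays of KCl-treated roots and 3 arrays of KNO3-treated roots. All plants, in both groups, came from hydroponic culture of 12 days, in which ammonium succinate (0.5 mM) was the nitrogen source and sucrose was present at 3 mM, and then received 5 mM KCl or 5 mM KNO3 for 2 h, so that the groups differed in the anion and not in potassium. Each array measured whole roots of a pool of seedlings on the ATH1 array, whose short oligonucleotide elements were designed on the Col-0 sequence.

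Roots take up nitrate through the NRT1 and NRT2 transporters, and NRT1.1 is also known as a nitrate sensor. Nitrate reductase (NIA) and nitrite reductase (NIR) turn nitrate into ammonium, with electrons that reach root plastids through the oxidative pentose phosphate pathway, ferredoxin-NADP reductase and ferredoxin. Genes of this chain are known as early targets of nitrate in roots, and in KCl the supply of reduced nitrogen came from ammonium in the medium.

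The 6 arrays had median signals between 104.3 and 113.4, and 51.0 to 52.8% of their probe sets reached a signal of 100. Correlations of log2 signals gave r squared of 0.788 to 0.886 between arrays of a group. The 3′ over 5′ ratio of the control transcripts, a measure of RNA integrity, was 2.97, 3.09 and 1.44 (log2) in the KCl arrays and 3.09, 3.24 and 1.13 in the KNO3 arrays, so replicate 3 was lower in both groups. PYK10, a beta-glucosidase abundant in roots, had signals of 5186 to 8414, and EXPA7, an expansin of root hairs, was under 50 on all 6 arrays. The other 10 root markers of the list had no named probe set. RCA, the Rubisco activase of green tissue, had signals of 1185 to 3285 on the 6 single arrays of both treatments, whereas KCl group means elsewhere in the series ran from 252 to 823. The KNO3 means elsewhere and the other green markers are not set against the series here.

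Before any comparison, one KNO3 array differed from the other KNO3 arrays in nitrate-inducible genes. On the array labelled KNO3 replicate 2, nitrate-inducible genes of the assimilation pathway had signals in or near the range of the KCl arrays, whereas KNO3 replicates 1 and 3 were far above it. NIR1, which encodes nitrite reductase, had signals of 314, 351 and 425 in the KCl arrays and 4736, 407 and 5389.8 in the KNO3 arrays. Among 6590 tested probe sets, 20 had KNO3 replicate 2 inside the KCl range and both other KNO3 arrays at least 2-fold outside it on the same side (13 higher, 7 lower), against 3 probe sets for KNO3 replicate 1 and 11 for KNO3 replicate 3. Across genes, which are not independent replicates, the KNO3 over KCl log2 ratios of replicates 1 and 3 correlated with r = 0.512, those of 1 and 2 with r = 0.296 and those of 2 and 3 with r = 0.113. A low KNO3 replicate 2 was not particular to Tamm-27. For NIR1 it was the lowest KNO3 array also in NFA-8 (4202, 942 and 6933), Ts-5 (2492, 1396 and 4541) and Var2-1 (1422, 499.6 and 1930). In Col-0, Kas-2 and Sq-8 it was not the lowest. In the other accessions the KCl and KNO3 signals of NIR1 were separate in NFA-8 and Sq-8 and overlapped in Col-0, Kas-2, Ts-5 and Var2-1. In Col-0 and Ts-5, and also in Tamm-27, the KNO3 array was nevertheless above the KCl array of its replicate number in all 3 pairs. In Tamm-27 the pair of replicate 2 (KNO3 against KCl) was 407 against 351 for NIR1 and 1896 against 1576 for NIA2. It was 929 against 671 for PGD3 and 1617 against 1031 for RFNR2. Some other listed genes, such as G6PD2 and LBD37 described below, went the other way in this pair. Results are therefore given with and without the array labelled KNO3 replicate 2, and all 6 arrays enter unless stated. Signals are listed in the order of replicates 1, 2 and 3.

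Of the assimilation and reductant genes, those with the highest KNO3 over KCl ratios were NIR1 and the 6-phosphogluconate dehydrogenase gene AT5G41670 (PGD3), and neither passed the test. A log2 ratio is here the mean log2(signal + 1) in KNO3 minus that in KCl, and adjusted p-values come from limma with Benjamini-Hochberg adjustment and a threshold of 0.1. For NIR1 it was 2.59 (SE 0.89, unadjusted p = 0.00601, adjusted p = 0.969 over all 22746 probe sets, 3 arrays per group), and without the array labelled KNO3 replicate 2 it was 3.81 (SE 0.90, adjusted p = 0.168). Because whole roots were measured, more transcript per cell and a larger share of the cells that hold it cannot be told apart.

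NIA2, a nitrate reductase gene, had 3217, 1576 and 2790.2 in KCl and 7050.3, 1896 and 6243 in KNO3, with a log2 ratio of 0.85 (SE 0.61, unadjusted p = 0.173) and of 1.46 without that array. No element of the NIA2 probe set had been discarded in either treatment. CNX3, needed to make the molybdenum cofactor of nitrate reductase, had a ratio of -0.23 (SE 0.51). Of the 3 probe sets of the nitrate reduction list 1, that of NIR1, had an unadjusted p under 0.05, against 3.2% of all probe sets. The median ratio of the 3 was 0.85. NIA1 has no probe set named in the sources used here and was not analysed.

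PGD3 and RFNR2, of the genes for reductant supply, showed the same split between arrays. PGD3 had 670.1, 671 and 957 in KCl and 7385, 929 and 6284 in KNO3 (log2 ratio 2.21, SE 0.86, unadjusted p = 0.0146, adjusted p = 0.74), which became 3.17 without KNO3 replicate 2 (adjusted p = 0.265). RFNR2, a root ferredoxin-NADP reductase, had 837, 1031 and 1446 in KCl and 5989, 1617 and 5997 in KNO3 (log2 ratio 1.85, SE 0.82, unadjusted p = 0.0302). In both genes KNO3 replicate 2 lay just inside or just above the KCl arrays, and the other KNO3 arrays at least 4 times above the highest of them.

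AT1G64190 (PGD1) had 3205, 3428 and 2150.4 in KCl and 10354, 4713 and 6934 in KNO3, groups that did not overlap, as for 4.98% of tested probe sets in this direction, with KNO3 replicate 2 above every KCl array (log2 ratio 1.28, SE 0.57, unadjusted p = 0.0303, adjusted p = 0.877). FD3, a ferredoxin of roots, had 5138, 3194 and 3531 (KCl) and 9683, 4766 and 7531 (KNO3) (log2 ratio 0.86, SE 0.45), and G6PD2, a plastid glucose-6-phosphate dehydrogenase, had 1101, 1006 and 557 (KCl) and 2890.4, 977 and 1794 (KNO3) (log2 ratio 1.01, SE 0.63). AT3G02360 (PGD2), the third 6-phosphogluconate dehydrogenase, had 3472, 3706 and 3259 in KCl and 4367, 3123 and 3069 in KNO3, a ratio of 0.00 (SE 0.23). Of the 6 probe sets of this list 0 were called (limma), against 0.0747% of all 22746 probe sets. An unadjusted p under 0.05 was found for 3, all higher, against 3.2% of all probe sets. The median log2 ratio of the 6 was 1.15 with all arrays and 1.49 without KNO3 replicate 2, against -0.02 and -0.01 over all 22746 probe sets.

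**Figure D1:**
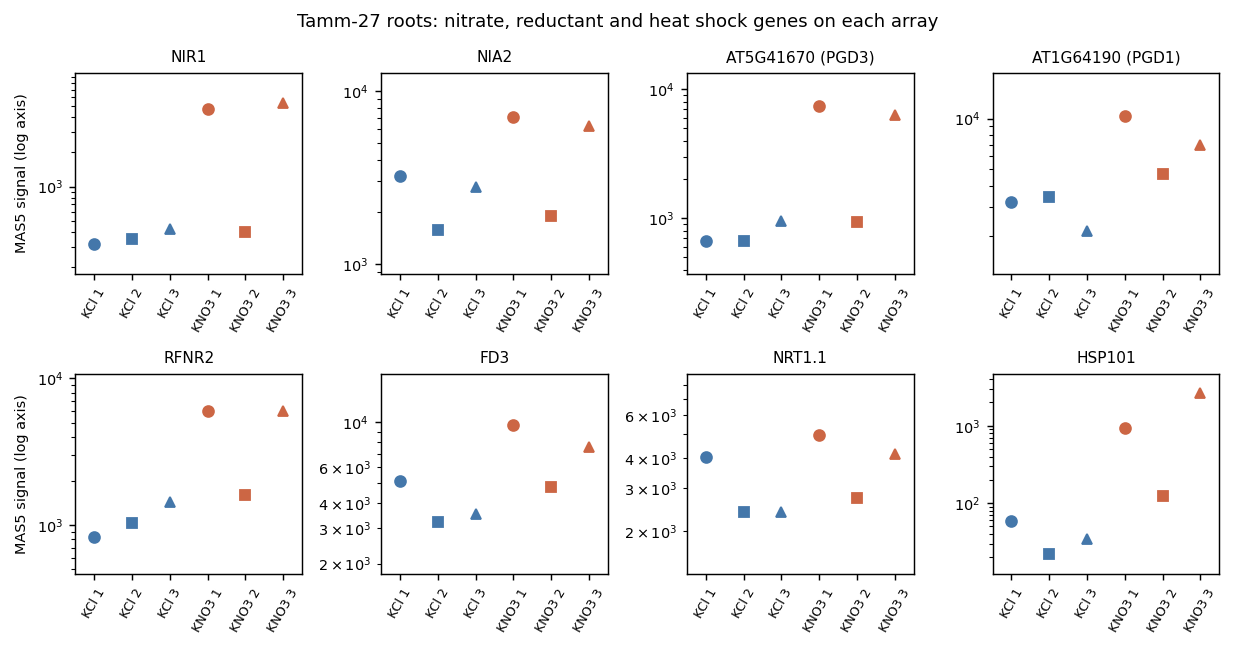
Signal of 8 genes (log axis, MAS5 units) on each of the 6 Tamm-27 arrays, with KCl arrays in blue, KNO3 arrays in orange and one symbol for each replicate number. For NIR1, NIA2 and PGD3 the KNO3 replicate 2 array lies within the KCl arrays, while replicates 1 and 3 lie above all of them.

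Nitrate transporter genes showed no call. NRT1.1 had 4026, 2388 and 2384 in KCl and 4962, 2742 and 4152 in KNO3 (log2 ratio 0.43, SE 0.39, unadjusted p = 0.275). The high-affinity transporter gene NRT2.1 (NRT2:1 in the annotation) was low, with 46.8, 118 and 56.6 in KCl and 133, 168 and 131 in KNO3, and although these groups did not overlap the ratio of 1.07 (SE 1.31, unadjusted p = 0.421) was smaller than its error. NRT1.5, which loads nitrate into the xylem, differed more between replicates than between treatments, with 2457, 6789 and 1497 in KCl and 2118, 6912 and 2146 in KNO3. NRT1.4 (AT2G26690) had 504, 203 and 364 (KCl) and 300.4, 62.9 and 246 (KNO3) (log2 ratio -0.99, SE 1.03). Of the 6 transporter probe sets, out of 23 listed genes, 0 passed an unadjusted p of 0.05 (limma), against 3.2% of all probe sets. The number called was 0, against 0.0747% of all probe sets.

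Among 10 probe sets of nitrate regulators 0 were called (limma), against 0.0747% of all 22746 probe sets. The 2 with an unadjusted p under 0.05, against 3.2% of all probe sets, were both lower in KNO3. AT1G76350 (NLP5), of the NIN-like protein family of nitrate-responsive transcription factors, had 217, 269 and 211 in KCl and 75, 130.2 and 92.4 in KNO3 (log2 ratio -1.25, SE 0.36, unadjusted p = 0.00136, adjusted p = 0.54). AT3G60320 (NRG2), a regulator of nitrate signalling, had 699, 765 and 545 (KCl) and 397, 517 and 304 (KNO3) (log2 ratio -0.74, SE 0.32, unadjusted p = 0.0287). Both had values in KNO3 replicate 2 below the KCl arrays, with a ratio of -1.46 and -0.93 without that array. LBD37, a repressor of nitrogen-responsive genes, had 504, 641 and 659 in KCl and 1025, 529 and 1465 in KNO3, again with KNO3 replicate 2 among the KCl values (log2 ratio 0.63, SE 0.50). CIPK23, the kinase that phosphorylates NRT1.1, had 444, 586 and 607 (KCl) and 818, 504 and 909 (KNO3) (log2 ratio 0.42, SE 0.50).

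Across all tested probe sets 12 of 6590 (0.182%) differed between KNO3 and KCl at an adjusted p of 0.1, 4 higher (0.0607%) and 8 lower (0.121%) in KNO3, and 316 (4.8%) had an unadjusted p under 0.05. Few genes of nitrate assimilation could be among them, because 0 of 3 named probe sets for nitrate reduction, 2 of 6 for transport and 3 of 6 for reductant supply were in the tested set, and none of these 5 was called. Unlike NIR1, all 12 had KCl and KNO3 groups that did not overlap, with KNO3 replicate 2 on the same side as the other KNO3 arrays. The 12 were selected by p-value on these same arrays, which favours such probe sets, so the separation is no independent evidence for them. Over all tested probe sets the groups did not overlap for 723 (11%), 328 higher (4.98%) and 395 lower (5.99%) in KNO3.

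The call with the smallest p-value was AT2G32090, a glyoxalase family gene, which rose in KNO3. Its signals were 83, 187 and 188 in KCl and 465, 519 and 666 in KNO3 (log2 ratio 1.92, SE 0.29, 95% interval 1.33 to 2.51, adjusted p = 0.00104). It stayed called without any one of the 6 arrays (adjusted p = 0.00123 to 0.0356). In the other accessions the KCl group means were higher than here, from 256 to 462 against 153 in Tamm-27. The KNO3 group means were closer, from 264 to 529 elsewhere against 550 in Tamm-27.

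AT5G45510, which encodes a leucine-rich repeat protein, also rose, from 902, 604 and 674 in KCl to 2692, 1792 and 3770.2 in KNO3 (log2 ratio 1.88, SE 0.39, adjusted p = 0.0242). The lowest KNO3 array was replicate 2, about 2 times above the highest KCl array. The next gene on the chromosome, AT5G45500, had 739, 606 and 464 in KCl and 2640.2, 2026 and 2797 in KNO3, a ratio of similar size with a larger error (2.05, SE 0.76, adjusted p = 0.679). It was called for the 6 arrays alone with the replicate number as a block (adjusted p = 0.0352), and not with a block in every accession (0.177).

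PIP, a proline iminopeptidase that removes proline from peptide ends, rose from 336, 317 and 512 to 939, 779.6 and 1034 (log2 ratio 1.26, SE 0.28, adjusted p = 0.054). AT1G23440, a pyrrolidone carboxyl peptidase family gene that likewise acts on the amino end of peptides, rose from 156, 176 and 177 to 514, 367 and 569.6 (log2 ratio 1.48, SE 0.34, adjusted p = 0.0657). A further probe set of AT1G23440 had 232, 214 and 607 in KCl and 538, 400.4 and 1279 in KNO3, with overlapping groups and a ratio of 1.06 (SE 0.71, adjusted p = 0.999), so the gene was called on one of its probe sets only.

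AT4G10320, an isoleucyl-tRNA synthetase gene of protein synthesis, fell from 1319, 1166 and 1559.9 in KCl to 509, 350 and 223 in KNO3 (log2 ratio -1.97, SE 0.33, 95% interval -2.63 to -1.31, adjusted p = 0.00256). With AT2G32090 it was the only call that held without any one of the 6 arrays (adjusted p = 0.00188 to 0.0356). All KNO3 arrays lay more than 2-fold below the lowest KCl array.

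AT1G28680, which encodes the coumarin synthase COSY, an enzyme that completes scopoletin synthesis in roots, fell from 1611, 2207 and 893 to 289, 551 and 168 (log2 ratio -2.29, SE 0.43, adjusted p = 0.0136). Replicate 2 was the highest array of both groups. AT4G26410, which encodes RHIP1, a protein that binds the glucose-signalling proteins RGS1 and hexokinase, fell from 1064, 425 and 480.4 to 122, 167 and 111 (log2 ratio -2.19, SE 0.43, adjusted p = 0.0198). AT1G01240 fell from 384, 553 and 359.8 to 88.6, 82.9 and 120.3 (log2 ratio -2.13, SE 0.41, adjusted p = 0.0187).

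AT5G67430, an acetyltransferase family gene, had 532, 238 and 373 in KCl and 2.9, 41.3 and 68.6 in KNO3 and the largest ratio of the calls (-4.01, SE 0.81, adjusted p = 0.0229). The ratio rests in part on a KNO3 replicate 1 signal near 0 and was -3.07 with 16 added to the signals in place of 1. AT3G62040, of the haloacid dehalogenase-like hydrolases, fell from 929, 1541 and 922 to 126, 341 and 376 (log2 ratio -2.11, SE 0.46, adjusted p = 0.0483).

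AT3G06330, a RING-type zinc finger gene, fell from 501, 633 and 466 to 162, 283 and 89.3 (log2 ratio -1.72, SE 0.38, adjusted p = 0.0483). AT3G58560, of a family of nucleases and phosphatases that includes the deadenylase CCR4, fell from 912, 1077 and 545 to 372, 295 and 294 (log2 ratio -1.35, SE 0.32, adjusted p = 0.0847). Its neighbour on the chromosome, AT3G58550, had 1634, 2516 and 2937 in KCl and 918, 659 and 2662 in KNO3, with KNO3 replicate 3 inside the KCl range (log2 ratio -0.97).

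**Figure D2:**
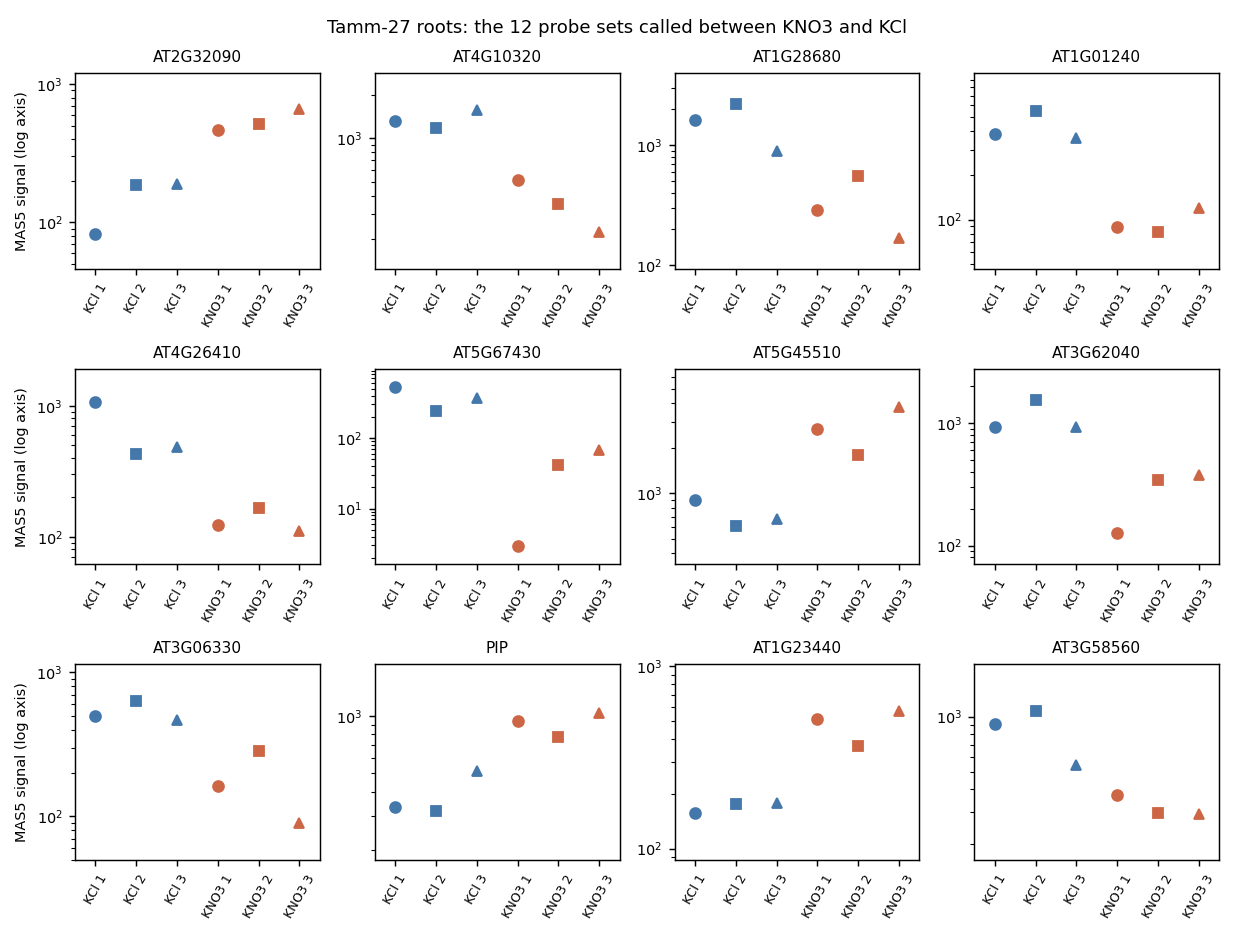
Signal (log axis, MAS5 units) on each of the 6 Tamm-27 arrays for the 12 called probe sets, in order of p-value, with KCl arrays in blue, KNO3 arrays in orange and one symbol for each replicate number. In every panel the 3 KNO3 arrays lie on one side of the 3 KCl arrays, above in 4 panels and below in 8. The probe sets were selected by p-value on these same arrays.

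Single arrays decided many of these calls. Without KNO3 replicate 1, 2 calls were made (AT2G32090 and AT4G10320), and without KCl replicate 1 or 2 there were 6 and 4. Without KCl replicate 3 there were 18 and without KNO3 replicate 3 there were 14. Without the array labelled KNO3 replicate 2 there were 15 (0.228%), 11 of them among the 12 and AT3G58560 not (adjusted p = 0.232). The 4 genes called only without it had signals there in or near the KCl range. AT1G64590, a short-chain dehydrogenase family gene, had 1272, 3886 and 1031 in KCl and 105, 3109 and 174 in KNO3, and its ratio moved from -2.16 to -3.66 (adjusted p from 0.786 to 0.0298). AT3G20370 had 2628, 2906 and 3403 (KCl) and 848, 2653 and 1095 (KNO3), moving from -1.13 to -1.62 (adjusted p = 0.0839). AT3G28850, a glutaredoxin family gene, had 250, 276 and 124 (KCl) and 1118, 259 and 492 (KNO3) and reached 1.85 (adjusted p = 0.0881), and AT3G27610 reached -2.43 (adjusted p = 0.0673).

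The response of Tamm-27 was then set against the mean response of the other 6 accessions in the same fit, and 4 of 6590 probe sets (0.0607%) differed at an adjusted p of 0.1, 1 of them higher (0.0152%) and 3 lower (0.0455%) in Tamm-27, while 290 (4.4%) had an unadjusted p under 0.05. All 4 are among the 12 calls. AT4G26410 had a log2 ratio of -2.19 in Tamm-27 and of -0.65 to 1.4 in the others (difference -2.53, SE 0.47, adjusted p = 0.0134). AT4G10320 had -1.97 against -0.71 to 0.64 (difference -1.94, SE 0.35, adjusted p = 0.0134). AT2G32090 had 1.92 against -0.37 to 0.99 (difference 1.69, SE 0.32, adjusted p = 0.0134), and AT3G58560 had -1.35 against -0.30 to 1.13 (difference -1.60, SE 0.34, adjusted p = 0.0716). With a replicate block within each accession AT3G58560 lost the call (adjusted p = 0.174), and the other 3 kept theirs (0.0231 to 0.0371). None of the 4 passed without KCl replicate 1 (adjusted p = 0.141 to 0.39). Without the array labelled KNO3 replicate 2 the first 3 kept an adjusted p of 0.0508 and AT3G58560 had 0.254.

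Over all 22746 probe sets the response that differed from the others with the smallest p-value was that of a probe set without a single annotated gene here. Its signals were 82.2, 294 and 197 in KCl and 871, 680.1 and 816 in KNO3 (log2 ratio 2.21, SE 0.34, adjusted p = 0.00163), while the ratio in the others ran from -1.80 to -0.28 (difference 2.87, SE 0.37, adjusted p = 6.78e-05). The KCl group means of the other accessions were 1348 to 2731, all above any Tamm-27 array.

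For the other 8 calls the difference from the other accessions did not pass the test. AT1G28680 had a difference of -1.84 (SE 0.46, adjusted p = 0.286) and its ratio in the others ran from -1.23 to 0.10. AT5G67430 differed by -3.28 (SE 0.88, adjusted p = 0.409). For AT5G45510 another accession had a higher ratio than Tamm-27 (2.5 against 1.88), whereas the Tamm-27 ratio lay outside the range of the others for the remaining 11 calls, which had been chosen for their response in Tamm-27.

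**Figure D3:**
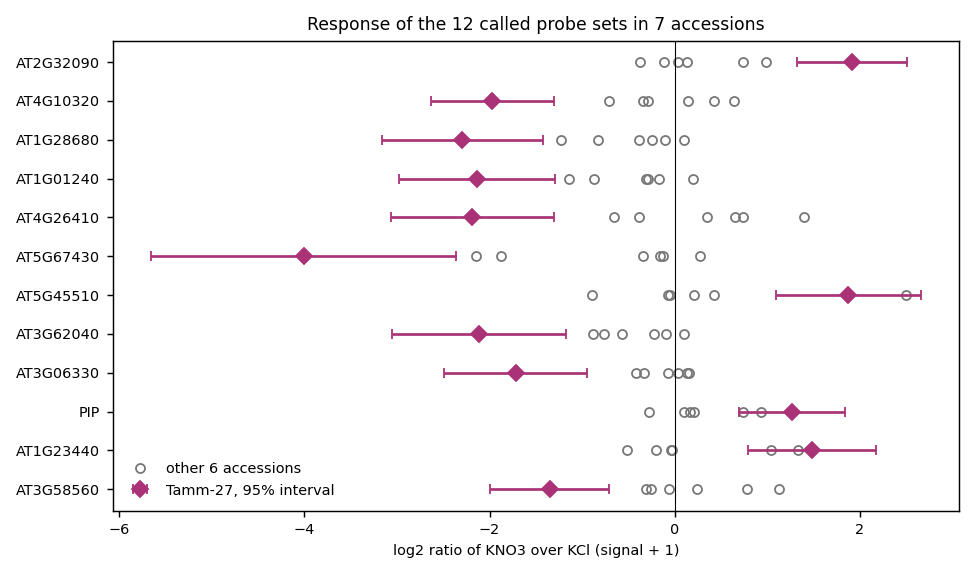
The log2 ratio of KNO3 over KCl for the 12 called probe sets, with Tamm-27 as diamonds and 95% intervals from the limma fit, and the other 6 accessions as open circles. The Tamm-27 ratio lies outside the others in 11 rows, and in the row of AT5G45510 another accession lies at 2.5.

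With all 22746 probe sets tested and no filter on signal, 17 (0.0747%) were called, 9 of them among the 12, and 728 (3.2%) had an unadjusted p under 0.05. A set of 6 further calls had a gene name. GLP5, a germin-like protein, fell from 3262, 3377 and 3072 in KCl to 537, 727 and 765 in KNO3 (log2 ratio -2.27, SE 0.35, adjusted p = 0.00163). Its KCl signals lay close together, and its ratio was below 0 in every other accession as well (-2.09 to -0.28). It remained called without KNO3 replicate 2 (adjusted p = 0.00694).

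OMT1, the caffeic acid O-methyltransferase of lignin synthesis, fell from 4917, 4795 and 4419 to 1258, 1668 and 1899.9 (log2 ratio -1.57, SE 0.32, adjusted p = 0.0367), with ratios of -0.24 to 0.35 in the others (difference -1.62, adjusted p = 0.141). PAL4, a phenylalanine ammonia-lyase at the entry of the same pathway, fell from 939, 1258 and 958 to 204, 354 and 488 (log2 ratio -1.67, SE 0.35, adjusted p = 0.0425). AT1G35250 (ALT2), an acyl-lipid thioesterase, fell from 443, 684 and 303 to 90.4, 129.6 and 155 (log2 ratio -1.88, SE 0.35, adjusted p = 0.0166).

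SDH4, a subunit of the succinate dehydrogenase of mitochondria, rose from 129, 280 and 704 to 1704, 2253 and 1647 (log2 ratio 2.65, SE 0.52, adjusted p = 0.0282). Its KCl signals differed more than 5-fold from replicate to replicate, while the KNO3 signals were close together. FKBP12, a prolyl isomerase that binds rapamycin, rose from 2548, 2211 and 4137 to 10579.9, 9456 and 6466 (log2 ratio 1.60, SE 0.36, adjusted p = 0.0949). Without KNO3 replicate 2, where 11 probe sets were called (0.0484%) and 869 (3.82%) had an unadjusted p under 0.05, OMT1, PAL4, SDH4 and FKBP12 were not (adjusted p = 0.143, 0.143, 0.168 and 0.334), and AT1G35250 was (0.0474).

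The signals of an array had been computed after elements were discarded separately for KCl-treated and KNO3-treated Tamm-27, so that for many probe sets the KCl and the KNO3 signal do not come from the same elements. Of the 6590 tested probe sets, 684 (10.4%) had the same elements discarded in both lists, or none, and 5906 (89.6%) did not. All 12 calls, and all 17 over all probe sets, had different elements in the 2 lists. AT2G32090 had 6 elements discarded in KCl and 2 in KNO3, with 1 in both lists. AT1G01240 had 0 and 3, and AT5G67430 had 2 and 5 with 0 in both. Whether an element difference moved a given signal was not tested.

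Classes of probe sets with more elements discarded in one list only held more probe sets with separate KCl and KNO3 groups in Tamm-27. The share of probe sets whose KCl and KNO3 groups did not overlap was 4.82% with 0 such elements, 7.48% with 1, 10% with 2, 12.8% with 3, 17.5% with 4, 17.7% with 5 and 19.2% with 6 or more. The share with an unadjusted p under 0.05 ran from 0.439% (3 of 684) to 13.8% (18 of 130) over the same classes, and the median size of the log2 ratio from 0.20 to 0.38. In Col-0, from which no element had been discarded, the same classes of probe sets showed no such rise: 8.77% did not overlap in the class of 0 and 7.69% in that of 6 or more, and the median size of the ratio was 0.18 and 0.17. The lists had been derived from these same Tamm-27 hybridisations, with Col-0 as the reference. The classes are therefore not independent of the Tamm-27 signals, and Col-0 is no independent control for them. What made the Tamm-27 shares rise was not tested. Mean signal also differed by class, with a median over probe sets of 255 in the class of 0 and 325 in that of 6 or more.

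**Figure D4:**
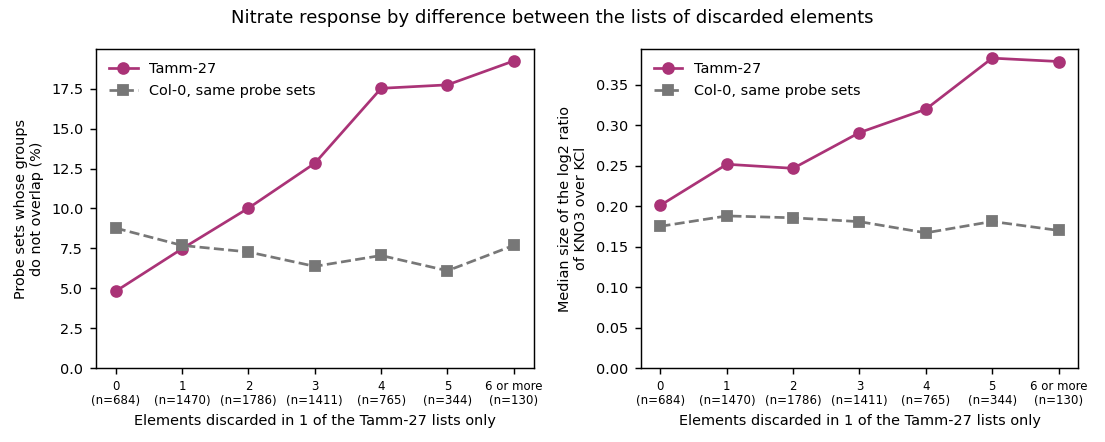
Share of tested probe sets whose 3 KNO3 signals all lie above or all below the 3 KCl signals (left) and median size of the log2 ratio (right), by the number of elements discarded in only one of the Tamm-27 lists, for Tamm-27 (circles) and for Col-0 over the same probe sets (squares). The Tamm-27 share rises from 4.82% to 19.2%, and the Col-0 share lies between 6.10% and 8.77%. The classes derive from the same Tamm-27 hybridisations, with Col-0 as the reference.

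Among the 684 probe sets with the same elements, tested by themselves, 0 were called (limma) and 3 had an unadjusted p under 0.05, all lower in KNO3. These were HCT, a hydroxycinnamoyl transferase of the phenylpropanoid pathway with 1230.4, 2007 and 1735 in KCl and 804, 922 and 1310.4 in KNO3 (log2 ratio -0.71, unadjusted p = 0.0168), AT4G19160 with 705, 1986 and 784 (KCl) and 209, 1316 and 208 (KNO3) (log2 ratio -1.42, unadjusted p = 0.0212), and AT3G58550, the neighbour of AT3G58560, with an unadjusted p of 0.0377. For HCT, KNO3 replicate 3 lay above KCl replicate 1, and in AT4G19160 the KNO3 replicate 2 array was again within the KCl range. These 3 were 0.439% of the class, against 4.8% of all tested probe sets.

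Arrays of the same replicate number deviated together in both Tamm-27 groups. With the 6 arrays alone and the replicate number as a block, 85 of 6590 probe sets (1.29%) were called, 34 higher and 51 lower, with 11 of the 12 calls among them, while the same 6 arrays without the block gave 0 calls and 374 at an unadjusted p under 0.05 (limma). All 85 had different elements in the 2 lists. This fit rests on few degrees of freedom, and with a block in every accession over all 42 arrays 13 were called (0.197%), 9 shared with the 12. The calls lost with the block were PIP, AT3G62040 and AT3G58560 in the latter fit (adjusted p = 0.121, 0.177 and 0.177) and AT5G67430 in the former (0.102).

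AT2G47550, a pectin methylesterase that acts on cell walls, had 168, 154 and 159 in KCl and 1274, 772 and 746 in KNO3 (log2 ratio 2.49). Its adjusted p was 0.0161 for the 6 arrays with the block and 0.233 for the same arrays without it, and 0.0707 with a block and 0.153 without one over all 42 arrays. AT2G21045, which encodes the arsenate reductase HAC1, had 62.4, 19.7 and 317 (KCl) and 432, 224 and 1974 (KNO3), with each KNO3 array at least 6 times above the KCl array of its number (log2 ratio 2.95, adjusted p = 0.0161 for the 6 arrays with the block, and 0.0303 with a block and 0.331 without one over all 42 arrays). AT5G38910, a germin-like protein gene, had 1281, 4004 and 664 (KCl) and 72, 183 and 183 (KNO3) (log2 ratio -3.48), and 8 elements of its probe set were discarded in one list only. Its adjusted p was 0.0468 for the 6 arrays with the block and 0.556 without it, and 0.0643 and 0.267 over all 42 arrays.

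A few of the 51 lower genes are named here after their values were seen, and none of the 4 below passed over all 42 arrays with or without a block. SWEET11, a sucrose exporter, had 458, 214 and 191 in KCl and 92.7, 79.7 and 78.7 in KNO3 (log2 ratio -1.66, adjusted p = 0.0711 for the 6 arrays with the block, 0.298 with and 0.676 without a block over 42 arrays), and SWEET16, a vacuolar sugar carrier, had 342, 511 and 366 (KCl) and 127, 159 and 183 (KNO3) (log2 ratio -1.37, adjusted p = 0.0711, 0.67 and 0.877). The related NPF family transporter genes AT3G45710 (NPF2.5) and AT3G45700 (NPF2.4) had ratios of -1.68 and -1.56. Their adjusted p was 0.0573 and 0.0938 for the 6 arrays with the block. Over 42 arrays it was 0.425 and 0.999 with and 0.874 and 0.999 without a block. AT3G45710 was lower in all pairs, with 261, 423 and 284 in KCl against 86.6, 176 and 62 in KNO3. XERICO, a RING protein that promotes abscisic acid accumulation, had 418, 518 and 495 in KCl and 1357, 2295 and 689 in KNO3 (log2 ratio 1.44, adjusted p = 0.0701 with a block in every accession and 0.15 without, both over 42 arrays, and 0.12 for the 6 arrays with the block).

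Because COSY, OMT1 and PAL4 were called, the other genes of phenylpropanoid and suberin synthesis were listed after these values had been seen. All 10 named phenylpropanoid probe sets, of 18 listed genes, had a log2 ratio below 0, with a median of -0.68 against -0.02 over all 22746 probe sets. A total of 3 were called, COSY, OMT1 and PAL4, against 0.0747% of all probe sets, and 1 of them, COSY, without KNO3 replicate 2. An unadjusted p under 0.05 was found for 6, against 3.2% of all probe sets. The groups did not overlap for 5 of the 10, all lower, against 5.83% of all probe sets. Since the called genes prompted the list, their count is no independent evidence of its direction.

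4CL1, a 4-coumarate CoA ligase, had 3409, 3446 and 2451 in KCl and 1873, 1715 and 1288 in KNO3 (log2 ratio -0.93, SE 0.31, unadjusted p = 0.00536, adjusted p = 0.919). CCR1, the cinnamoyl-CoA reductase that opens the lignin branch, had 1445, 2353 and 1418 (KCl) and 839, 1250.2 and 1212 (KNO3) (log2 ratio -0.64, SE 0.31, unadjusted p = 0.0453). CYP98A3, AT3G13610 (F6′H1) and PAL2 had ratios of -0.38, -0.47 and -0.57, none with an unadjusted p under 0.05. PAL2 was at 3022, 1105 and 2532 in KNO3 against 2728, 3091 and 3306 in KCl. It was lowest by far on KNO3 replicate 2, and KNO3 replicate 3 also lay below every KCl array.

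Of the suberin list 2 probe sets were named, both lower and neither called. FACT, which esterifies caffeic acid to fatty alcohols of suberin-associated waxes, had 1527, 2085 and 814 in KCl and 433, 591 and 544 in KNO3 (log2 ratio -1.4, SE 0.38, unadjusted p = 0.000692, adjusted p = 0.267). KCS2, a fatty acid elongase subunit for suberin, had 367, 662 and 515 (KCl) and 171, 135 and 272 (KNO3) (log2 ratio -1.44, SE 0.45, unadjusted p = 0.00275). Both were lower in all pairs, replicate 2 included.

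**Figure D5:**
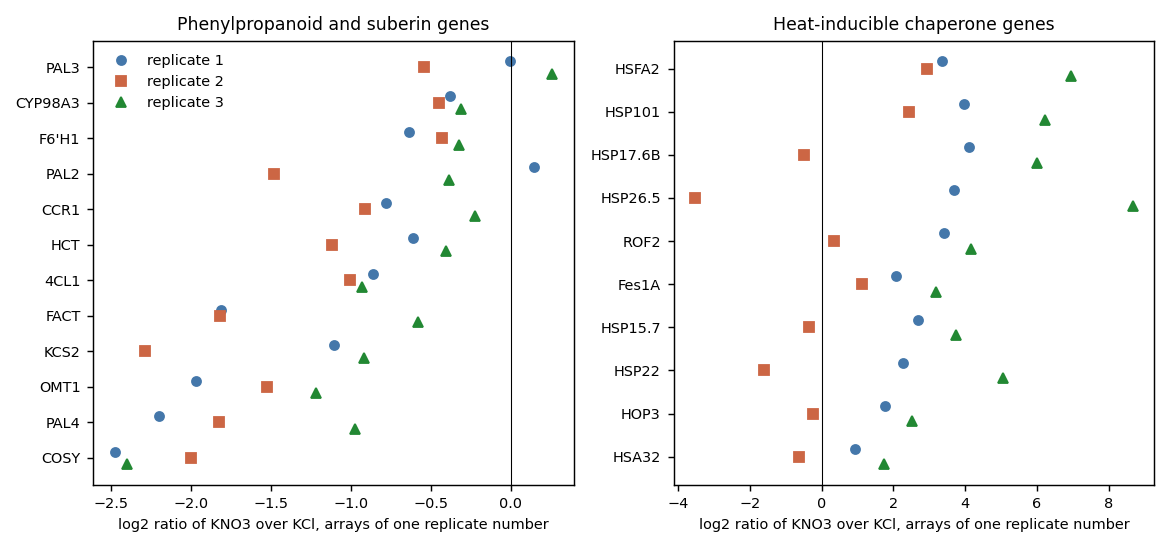
The log2 ratio of KNO3 over KCl between arrays of the same replicate number, for 12 phenylpropanoid and suberin genes (left) and 10 heat-inducible chaperone genes (right), with one symbol for each replicate number. COSY lies at -2.0 or below in each pair, while for 6 of the 10 chaperone genes the pair of replicate 2 lies below 0 and the other pairs above.

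Genes of the heat shock response had the highest ratios of all listed genes but no call in the fit of all 42 arrays. HSP101, a chaperone that dissolves protein aggregates, had 58.5, 21.8 and 34 in KCl and 924, 124 and 2626 in KNO3 (log2 ratio 4.21, SE 1.25, unadjusted p = 0.00181, adjusted p = 0.623). HSFA2, a heat shock transcription factor, had 20, 1.2 and 1.5 (KCl) and 213, 15.9 and 309.9 (KNO3) (log2 ratio 4.42, SE 1.5, unadjusted p = 0.00574). Its KCl signals were near 0, and the ratio was 2.59 with 16 added to the signals. The spread was wide within KNO3, with replicate 2 at the lowest signal for each of these genes.

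In a list of 24 heat-inducible chaperones drawn up after these values were seen, all 10 named probe sets had a ratio above 0, with a median of 2.38, or 3.69 without KNO3 replicate 2. None was called with or without that array (limma), and 5 had an unadjusted p under 0.05, against 3.2% of all probe sets. Since values already seen prompted the list, these counts are no independent evidence of its direction. With the 6 arrays alone and the replicate block, Fes1A and, in the fit over all probe sets, HSP101 passed (adjusted p = 0.0773 and 0.0836), and with a block in every accession they did not (0.33 and 0.2). AT2G29500 (HSP17.6B), a small heat shock protein, had 34.2, 82.2 and 46.2 in KCl and 611, 58.2 and 3025 in KNO3, and AT5G48570 (ROF2), an FKBP-type chaperone, had 54.4, 39.3 and 43.6 (KCl) and 583, 50.3 and 805 (KNO3). Fes1A, which protects HSP70 proteins, had 279.9, 234 and 235 (KCl) and 1183, 512 and 2146 (KNO3), the one of these 3 whose groups did not overlap, as for 5.06% of all probe sets in this direction (log2 ratio 2.13, SE 0.75, unadjusted p = 0.00728). The small heat shock genes AT1G53540 and AT1G54050 had the 2 highest ratios among tested probe sets with separate groups (4.24, SE 1.75, and 3.52, SE 1.52). AT1G53540 went from 29.6, 31.2 and 22.5 in KCl to 1078, 53.5 and 2674 in KNO3. In the other accessions the ratios of these genes ran from -1.25 to 2.51 and from -1.29 to 2.24, both highest in NFA-8. Their KCl group means elsewhere ran from 29.8 to 1834.5 and from 84.1 to 1804.8. The Tamm-27 KNO3 means were 1268.5 and 906.3.

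Some further genes of high ratio rested on KNO3 replicate 2 itself. AT1G52050, a jacalin-related lectin gene, had 35.9, 20.1 and 28.3 in KCl and 55.2, 3334 and 49.9 in KNO3 (log2 ratio 2.90, and 0.92 without replicate 2). AT5G60530 had 53.6, 7.5 and 30.2 (KCl) and 62.1, 1569 and 92.7 (KNO3), AT1G54890 had 208, 96.9 and 162 (KCl) and 399.8, 2147 and 517 (KNO3), and the peroxidase gene AT5G24070 had 17.5, 2.5 and 14.9 (KCl) and 21.2, 316 and 76.7 (KNO3). In these 4 genes one array carried most of the KNO3 mean. AT3G10720, another pectin methylesterase gene, was even across KNO3, with 427, 90.1 and 392 in KCl and 1509, 1547 and 1480.2 in KNO3 (log2 ratio 2.61, adjusted p = 0.512 over 42 arrays, 0.236 with a block in every accession and 0.0725 for the 6 arrays with the block).

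Among the lowest ratios with separate groups were AT2G15560 (4094, 1525 and 1332 in KCl and 671, 385 and 176 in KNO3, log2 ratio -2.5, adjusted p = 0.329), AT1G30750 (489, 700.2 and 1029 (KCl) and 84.7, 216 and 199 (KNO3), log2 ratio -2.19) and AT2G48130, a lipid transfer protein gene (134, 565 and 344 (KCl) and 33.3, 125 and 69.8 (KNO3), log2 ratio -2.14). These 3 were called in the blocked fit of the 6 arrays (adjusted p = 0.0161, 0.022 and 0.0203) and not with a block in every accession over all 42 (0.236, 0.187 and 0.487). The terpene synthase TPS-CIN (-2.24) and AT5G48490 (-2.21), a lipid transfer protein gene, were also among the 10 lowest, with AT5G38910, AT5G67430, COSY and RHIP1. The peroxidase gene AT3G49960 had signals of at most 26, so its ratio follows the number added to the signals (-2.47 with 1 and -0.84 with 16) and its place is not given.

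Hormone genes gave no call, against 0.0747% of all probe sets. Cytokinin is a hormone whose synthesis nitrate is known to promote. In its list 1 of 5 probe sets had an unadjusted p under 0.05, against 3.2% of all probe sets. This was ARR6, a response regulator that cytokinin induces, which was low, with 5.4, 44.3 and 44.4 in KCl and 94.3, 93.6 and 173 in KNO3 (log2 ratio 2.3, SE 0.89, unadjusted p = 0.014). ARR4 had 449, 754 and 704 (KCl) and 809, 516 and 426 (KNO3), with overlapping groups, and the receptor gene HK3 had a ratio of -0.28 (SE 0.36).

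In the list of auxin and lateral root genes 1 of 8 probe sets had an unadjusted p under 0.05, against 3.2% of all probe sets. AUX1, an auxin influx carrier, had 1834, 1747 and 1168 in KCl and 928, 911 and 644 in KNO3, with every KNO3 array below every KCl array (log2 ratio -0.93, SE 0.41, unadjusted p = 0.0288, adjusted p = 1.0). LAX3, a related carrier of lateral root emergence, had 601, 693 and 576 (KCl) and 607, 291 and 609 (KNO3), low on KNO3 replicate 2 only, and AFB3, an auxin receptor, had a ratio of -0.08 (SE 0.30).

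The remaining lists had no probe set with an unadjusted p under 0.05, against 3.2% of all probe sets. Of the ammonium and amino acid genes, GSR2, a cytosolic glutamine synthetase, was near the same level on all arrays, with 11307, 11085 and 10645 in KCl and 12961, 11672 and 10768 in KNO3. ASP2, an aspartate aminotransferase, differed by replicate, with 2131, 721 and 2332 (KCl) and 2892, 850.2 and 4802 (KNO3), and the ammonium transporter gene AMT1;2 had a ratio of -0.08 (SE 0.80). In the iron list ILR3, NAS4 and OPT3 had ratios of 0.05, 0.18 and -0.59. Of the sulfate and potassium genes, the sulfite reductase SIR had 952, 822 and 929 in KCl and 2557, 775 and 1464 in KNO3, with KNO3 replicate 2 below the KCl arrays (log2 ratio 0.66, and 1.1 without that array), and SULTR1;2 and KT1 had 0.72 and 0.19.

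The low-oxygen gene ADH1, alcohol dehydrogenase, was lowest in replicate 2 of both groups, with 11253, 2031 and 5401 in KCl and 14648, 878 and 12062 in KNO3, and SUS1, sucrose synthase, had 891, 355 and 2019 (KCl) and 1297, 399 and 4534 (KNO3). For the clock genes LHY and GI the groups did not overlap, LHY lower as for 5.83% and GI higher as for 5.06% of all probe sets, with ratios of -0.61 (SE 0.40) and 0.55 (SE 0.33). JAZ1, STZ and WRKY40, of the list for touch, wounding and stress, had ratios of 0.85, 0.25 and 0.23, and STZ was highest on KNO3 replicate 3 (238, 194 and 424 in KCl and 268, 118 and 1027 in KNO3).

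All 5 named green shoot markers had a ratio below 0, with a median of -0.98, and in 3 the groups did not overlap, all lower, against 5.83% of all probe sets. RCA had 3285, 2441 and 2565 in KCl and 2606, 1185 and 1845 in KNO3 (log2 ratio -0.62, SE 1.00), PSAE-1 had 1278, 1264 and 1539 (KCl) and 1078, 721 and 1573 (KNO3), and PSBP-1 had 2381, 2031 and 2146 (KCl) and 1169.8, 816 and 1405 (KNO3) (log2 ratio -0.98, SE 0.65). Each was lowest on KNO3 replicate 2, and the median ratio without that array was -0.69. The root marker PYK10 had 7207, 8414 and 5186 (KCl) and 6407, 7510 and 6576 (KNO3), a ratio of 0.00 (SE 0.45), and EXPA7 one of -0.61 (SE 0.83). The part of green tissue in the results on other genes was not tested. The median ratio was -0.02 for transport, 0.45 for regulators, 0.33 for ammonium and amino acids, -0.14 for cytokinin, 0.12 for auxin and 0.03 for iron, against -0.02 over all probe sets. Over the 15 lists, 65 probe sets were named, and 0 were called (limma), against 0.0747% of all probe sets. An unadjusted p under 0.05 was found for 10, against 3.2% of all probe sets, 7 higher and 3 lower in KNO3.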

How the data were processed

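Roots were hybridised to ATH1 arrays, 3 pools of seedlings per treatment in each of 7 accessions. The authors deposited signal intensities computed with MAS5 after elements whose hybridisation departed from Col-0 had been discarded by accession and treatment (32602 elements for Tamm-27 in KCl and 33045 in KNO3), and lists of those elements. The methods give MAS5 in the GCOS software as the normalization, and a scaling target is not given in the sources used here. Intensities carry no counts, so the number of arrays limits the precision.

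Of 22746 probe sets other than controls, 13367 matched 1 nuclear gene in the platform annotation, with symbols updated from TAIR10.1, and 1232 more were named from gene identifiers in the supplementary tables of the study, whose values were not used. The tested set was the 6590 of the former whose signal averaged 100 or more across the 42 arrays. All 42 arrays entered one limma fit (version 3.58.1, R 4.3.3) of log2(signal + 1) on the 14 groups, with a mean-variance trend and Benjamini-Hochberg adjustment at 0.1. The contrasts were KNO3 minus KCl in Tamm-27, and that minus the mean of the other 6 accessions. Genes outside the tested set are quoted from the same fit over all 22746 probe sets. P-values measure the spread between pools of seedlings, which the labels do not tie to separate experiments.

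Deviations from the group means correlated between arrays of the same replicate number (0.56, 0.413 and 0.692, against -0.503 to 0.148 for different numbers). Deviations within a group sum to 0, which pushes the values for different numbers down, so these are no independent baseline. For the signals themselves the gap was smaller, with r squared of 0.879, 0.849 and 0.870 for the same number and 0.779 to 0.848 for different numbers. The numbers were therefore taken to pair the arrays in the blocked fits and in comparisons of pairs. The main fit had no block, so its standard errors and p-values ignore this pairing. With a block within each accession, 9 of its 12 calls remained. In simulated data on 6590 probe sets the fit called 12 of 100 changed 2-fold, 76 of 100 changed 4-fold and 9 of 6390 unchanged. The simulated noise was normal and independent between arrays. It held neither the shared deviations of replicate numbers nor differences in discarded elements, so these counts may not carry over to the real arrays. The members and gene lists were chosen with earlier results of these data known, and the phenylpropanoid, suberin and chaperone lists after the values had been seen. Named genes were the calls, the 10 highest and 10 lowest ratios with separate groups, genes of the lists, and calls of the alternatives.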

Additional observations from a re-analysis of the deposited data

Results flagged for a closer look

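For 4 genes the response of Tamm-27 differed from the mean response of the other 6 accessions by limma with Benjamini-Hochberg adjustment. The difference in log2 ratio was -1.94 for AT4G10320, the isoleucyl-tRNA synthetase gene (SE 0.35, adjusted p = 0.0134), and -2.53 for AT4G26410, which encodes RHIP1 (SE 0.47, adjusted p = 0.0134). It was 1.69 for the glyoxalase family gene AT2G32090 (SE 0.32, adjusted p = 0.0134) and -1.60 for AT3G58560 (SE 0.34, adjusted p = 0.0716, and 0.174 with a replicate block within each accession). All 4 probe sets had different elements discarded in the KCl and KNO3 lists of Tamm-27, with 6, 3, 2 and 6 elements in one list only for AT2G32090, AT4G10320, AT4G26410 and AT3G58560, and the part of this in the differences was not tested.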

How the results depend on the processing

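Against 12 calls for the Tamm-27 response and 4 for its difference from the other accessions, array weights gave 134 and 88 (the weights did not fully converge), and the 3′ over 5′ ratio as a covariate 21 and 8. The same elements only gave 0 and 0 among 684 probe sets, with 3 at an unadjusted p under 0.05 for the response, and 4.82% separate groups in place of 11%. The cause of the higher counts was not tested. Leaving out 1 Tamm-27 array gave 2 to 18 calls for the response (2 without KNO3 replicate 1, 4 and 6 without KCl replicates 2 and 1, 18 without KCl replicate 3) and 0 to 8 for the difference. The separate groups with 1 array left out are not comparable, since fewer arrays overlap less often.

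The replicate number as a block gave 13 and 4 calls, and a block within each accession 13 for the response. The 6 arrays alone gave 0 calls (374 at an unadjusted p under 0.05), and 85 with the replicate block. Over all 22746 probe sets a block within each accession gave 26 and 11 calls, and leaving out KNO3 replicate 2 gave 11 and 2. The latter settings, and the block within each accession, were chosen after seeing the data. Quantile normalization, 16 added to signals, no trend, no filter on signal, a Tamm-27 mean of at least 100, and a threshold of 0.05 left 9 to 13 and 3 to 4 calls. Of the values of single genes under all settings, 795 kept their side of the threshold, 84 lost a call and 24 gained one. The 795 include many values of genes that were not called in the main fit and stayed so. All 84 are values of called genes, whose calls were thus less stable than the pooled counts. The call of AT3G58560 in the response was lost in 14 of 21 settings, and that of AT2G32090 in 1 of 21. None of the values changed direction, but many of the settings leave the log2 ratio as it is.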
